A study of Mus musculus with 2 samples.

Results

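Trpm2, Trpm4 and Trpm7, genes of the transient receptor potential melastatin (TRPM) family of cation channels, were followed by gene symbol through 2 single-cell RNA libraries of mouse bone marrow derived macrophage cultures. They were chosen by name, not by a threshold on these data, but with earlier results of these data known. They are 3 of the 31053 genes in the deposited table and 3 of its 8 Trpm genes. The cells came from wild-type 129Sv mice and were grown from bone marrow with M-CSF at 50 ng/ml and serum at 10%. M-CSF is the cytokine under which marrow precursors turn into macrophages. On day 7, 1 culture received 1 µg/ml of a truncated Tamm-Horsfall protein (THP, or uromodulin, a protein made in the kidney) that does not polymerize, and the other received its vehicle, 5% dextrose, each for 18 h. Both groups share strain, growth factor and harvest. The labels do not give the number, sex or age of the mice.

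TRPM2 is a calcium-permeable channel of the plasma membrane that opens when ADP-ribose and calcium bind to it, and oxidants raise the ADP-ribose that it senses. It is known from neutrophils, monocytes and macrophages, where it is studied in oxidant sensing and chemokine release. TRPM4 is opened by intracellular calcium but passes sodium and potassium rather than calcium, so its current depolarizes the cell. TRPM7 joins a channel for magnesium, calcium and zinc to a protein kinase in 1 polypeptide, and it is found in nearly all cell types, in which it is tied to magnesium balance and growth.

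There was 1 library per group. The difference between groups therefore has no replicate check, no p-value is given, and treatment cannot be told apart from culture dish or library preparation. Intervals in the text are 95% intervals that cover counting error only. Levels are CPM, the unique molecular identifiers (UMIs, 1 per captured RNA molecule) of a gene per 1e+06 UMIs of the cells summed. After the cell filter the THP library held 12123 cells with a median of 16113 UMIs and the vehicle library 10978 cells with a median of 17223, and 42 cell barcodes occurred in both libraries.

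The cultures held more than macrophages. Cells were sorted by marker genes into gates, and 7 gates had at least 50 cells in each library: myeloid progenitor, immature neutrophil, neutrophil, monocyte, macrophage, osteoclast-like and stromal. The macrophage gate held 19.3% of THP cells and 14.5% of vehicle cells. No gate took 37.5% of THP cells and 28.6% of vehicle cells. Within the macrophage gate the defining marker Adgre1 stood at 603 and 506 CPM, Cd68 at 505 and 499 CPM, and Csf1r at 329 and 365 CPM, in the THP and vehicle library.

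The genes lie on 3 chromosomes of GRCm38, all on the minus strand. Trpm2 (ENSMUSG00000009292) spans chromosome 10, 77907722 to 77970563. Trpm4 (ENSMUSG00000038260) spans chromosome 7, 45302632 to 45333780. Trpm7 (ENSMUSG00000027365) spans chromosome 2, 126791565 to 126876230. The annotated genes inside them are snoRNAs and processed pseudogenes that have no row in the deposited table.

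The start regions of Trpm2 and Trpm7 differ in CpG content. RefSeq windows (GRCm38.p6, minus strand, 250 bases before to 50 bases after the start) were used for Trpm2 and Trpm7. The RefSeq start of Trpm2 lies inside the gene span given above, so its window follows the RefSeq model. The set of windows held none for Trpm4, so only 2 members are shown. In the Trpm2 window, chr10:77969823-77970122, the capitals mark the GC box (GGGCGG), and in the Trpm7 window, chr2:126876212-126876511, they mark the E-box (CACGTG).
Trpm2: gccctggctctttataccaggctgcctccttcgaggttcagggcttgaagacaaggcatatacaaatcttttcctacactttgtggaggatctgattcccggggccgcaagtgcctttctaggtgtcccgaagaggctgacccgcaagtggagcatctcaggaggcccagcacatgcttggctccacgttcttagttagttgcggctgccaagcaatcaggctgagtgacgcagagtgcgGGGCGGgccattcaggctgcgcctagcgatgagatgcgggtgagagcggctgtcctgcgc
Trpm7: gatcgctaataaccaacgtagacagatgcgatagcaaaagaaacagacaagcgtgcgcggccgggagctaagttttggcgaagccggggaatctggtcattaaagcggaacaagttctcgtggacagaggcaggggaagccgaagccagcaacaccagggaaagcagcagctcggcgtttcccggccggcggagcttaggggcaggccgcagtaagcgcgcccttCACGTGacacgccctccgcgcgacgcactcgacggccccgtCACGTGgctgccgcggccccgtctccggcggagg

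The Trpm7 window held 35 CpG dinucleotides, more than 93.0% of the 32851 RefSeq windows of that length. The Trpm2 window held 15, more than 65.4% of them. In all, 6 motifs were searched on both strands: the E-box CACGTG, the GC box GGGCGG, the TATA box TATAAA, the CCAAT box CCAAT, the AP-1 site TGANTCA and the PU.1 core GAGGAA. Trpm7 had 2 matches to CACGTG, a palindrome, beginning 25 bases before and 16 bases after the start, where 7.15% of all windows hold at least 1 match and 0.594% hold 2 or more. Trpm2 had 1 match to GGGCGG, beginning 10 bases before the start, which 35.7% of windows hold, and 1 to TATAAA on the other strand, 240 bases before the start, which 13.6% hold. None of the other motifs matched in either window. A match describes the letters and is not evidence of binding.

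Over all kept cells Trpm2 and Trpm7 were lower in the THP library, and Trpm4 lay close to the middle of all genes. Trpm2 gave 1214 UMIs with THP, or 5.40 CPM (5.10 to 5.71), and 1830 with vehicle, or 8.81 CPM (8.41 to 9.23). The ratio of THP to vehicle was 0.613 (0.569 to 0.659). The intervals of the 2 libraries do not overlap.

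Trpm4 gave 797 UMIs with THP, or 3.54 CPM (3.30 to 3.80), and 847 with vehicle, or 4.08 CPM (3.81 to 4.36). Its ratio of 0.869 (0.788 to 0.959) is small and depends on the scaling: the log2 ratio of CPM + 1 was -0.16 with library totals, and 0.07 and 0.06 with TMM and RLE factors. A direction for Trpm4 over all cells is therefore not given by these data.

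Trpm7 gave 9892 UMIs with THP, or 44.0 CPM (43.1 to 44.9), and 16286 with vehicle, or 78.4 CPM (77.2 to 79.6). The ratio was 0.561 (0.547 to 0.575). Trpm7 was seen in most vehicle cells, since 63.9% of them had at least 1 UMI, against 47.3% of THP cells.

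The remaining family members were almost unread. Trpm3 had 12 and 19 UMIs, Trpm5 3 and 9, Trpm1 2 and 0, and Trpm6 0 and 1, in the THP and vehicle library. Trpm8 had 0 in both, where 3 counts would correspond to 0.0133 and 0.0144 CPM. TRPM6 is the close relative of TRPM7 that also carries a kinase, so nearly all the reads of that pair came from Trpm7.

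Ratios of this size were common. At 1 CPM or more in at least 1 library, Trpm2 and Trpm7 were lower by at least 1.5-fold on the scale of log2(CPM + 1), 2 of the 3 genes, and so were 17.4% of the 11508 genes tested. At 10 CPM or more, which only Trpm7 reaches, 17.3% of 8012 genes were lower by 1.5-fold, 2.97% by 2-fold, and 0.911% were higher by 2-fold. The log2 ratio was -0.62 for Trpm2, -0.16 for Trpm4 and -0.82 for Trpm7, beside a median of -0.18 over the 8012 genes. Only 6.85% of those genes had a lower ratio than Trpm7, against 15.3% for Trpm2 and 52.0% for Trpm4. TMM factors shift log2 ratios of plain CPM up by 0.29 and RLE factors by 0.28, and less for low genes on the CPM + 1 scale. With TMM, Trpm2 had -0.37 and Trpm7 -0.54, both below 0 but no longer lower by 1.5-fold.

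The ratio also differed with transcript length. Across 8008 genes Spearman's rho between the log2 ratio and the longest annotated transcript was -0.55, a description in which genes share the 2 libraries. Trpm2 and Trpm7 are long genes, with 7274 and 7107 bases, and Trpm4 has 4315. Of the 1602 genes of 5334 bases or more, 40.1% were lower by 1.5-fold. The median log2 ratio of genes of like length was -0.52 beside Trpm2, -0.30 beside Trpm4 and -0.49 beside Trpm7. With that trend subtracted and the overall median kept, the log2 ratio was -0.28 for Trpm2, -0.04 for Trpm4 and -0.51 for Trpm7. Trpm2 over all cells thus lay close to its length class, and Trpm7 lay below its own. Why length and ratio move together was not tested.

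**Figure D1:**
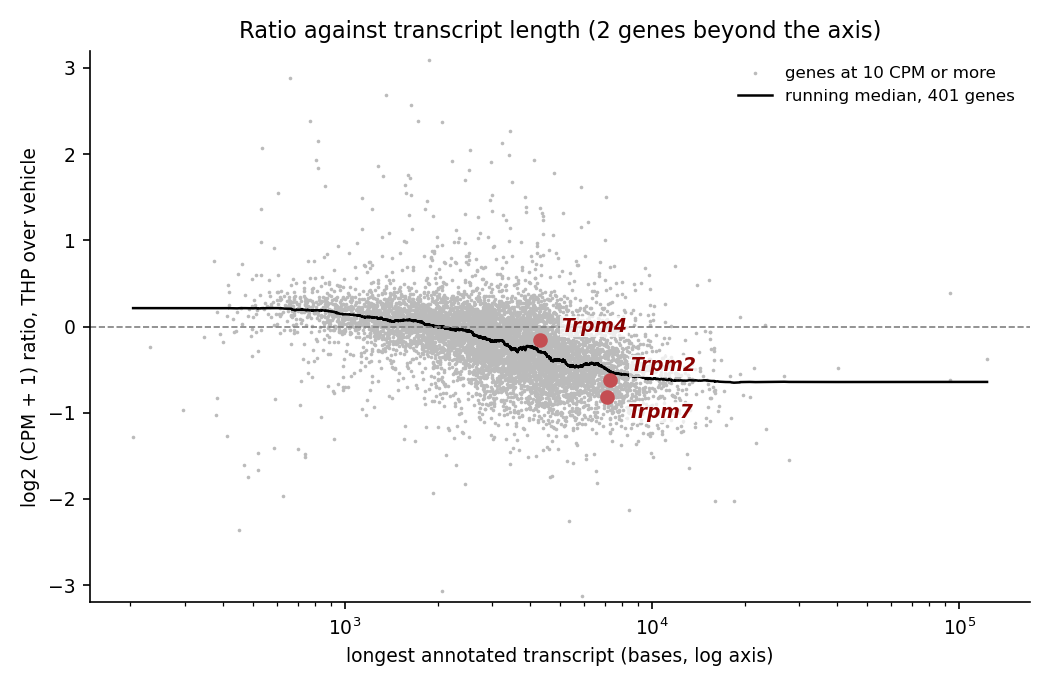
Log2 ratio of CPM + 1, THP over vehicle (y axis), against the longest annotated transcript in bases (x axis, log scale) for genes at 10 CPM or more, with the running median over 401 genes as a line and the 3 Trpm genes in red. The line falls with length; Trpm4 lies above it, Trpm2 close to it at -0.62 and Trpm7 below it at -0.82.

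Between cell types, Trpm2 varied most. In the vehicle library it stood at 34.2 CPM (29.1 to 39.9) in the neutrophil gate and 23.5 CPM (21.1 to 26.2) in the immature neutrophil gate. The macrophage gate followed with 9.80 CPM (8.87 to 10.8) and the monocyte gate with 8.77 (7.39 to 10.3), a pair whose intervals overlap. Osteoclast-like cells had 4.12 CPM (2.98 to 5.55) and myeloid progenitors 1.77 (1.29 to 2.37). Neutrophils are short-lived granulocytes that kill microbes with a burst of oxidants. The vehicle neutrophil gate held 3.49 times (2.89 to 4.19) the Trpm2 level of the macrophage gate and 19.3 times (13.8 to 27.5) that of the progenitor gate. Cells passing both neutrophil gates were counted as immature, so the immature gate also holds cells with mature markers. With vehicle, its cells without mitotic markers had Retnlg at 3955 CPM, beside 4399 in the neutrophil gate.

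In the THP library the order of the top gates was not resolved. The immature neutrophil gate had 12.1 CPM (10.2 to 14.4) and the neutrophil gate 9.67 (7.33 to 12.5), with overlapping intervals. The macrophage gate had 6.82 CPM (6.19 to 7.50) and the monocyte gate 5.22 (3.86 to 6.90). Progenitors were lowest, at 1.42 CPM (0.942 to 2.05). The neutrophil gate held 1.42 times (1.06 to 1.87) the level of the macrophage gate. Most UMIs of this THP neutrophil gate came from cells of 5000 UMIs or more, and the macrophage marker Adgre1 was seen in 75.4% of those. In its cells under 5000 UMIs Trpm2 stood at 27.5 CPM (19.8 to 37.2).

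Retnlg, a marker of the neutrophil gate, was read as a measure of stray neutrophil RNA in the macrophage gate. It reached 0.167% of its neutrophil-gate level in the THP macrophage gate and 0.209% in the vehicle one. Trpm2 reached 70.5% and 28.7% there. Cells passing both the neutrophil and the macrophage gate were left out, so the low Retnlg share is partly set by the rule. Trpm2 is not a gate marker, and these shares cannot tell how much of its macrophage level is stray RNA.

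**Figure D2:**
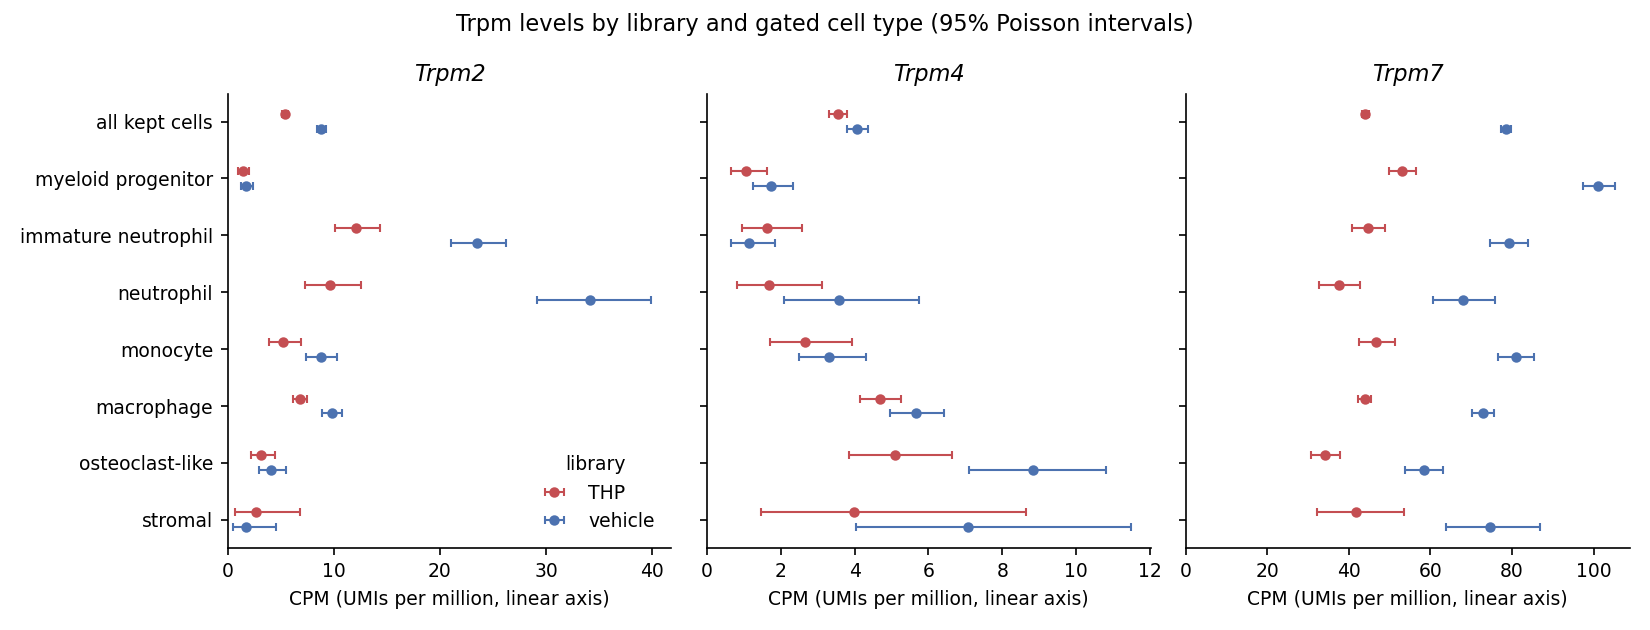
CPM (x axis, linear) of Trpm2, Trpm4 and Trpm7 in all kept cells and in 7 gates (y axis), as points with 95% Poisson intervals, THP in red and vehicle in blue. Trpm2 peaks in the neutrophil gates, where vehicle reaches 34.2 CPM; Trpm4 peaks in osteoclast-like cells; Trpm7 is lower in THP in every gate.

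The largest difference in Trpm2 between the libraries was in the neutrophil gate. The ratio of THP to vehicle was 0.283 (0.206 to 0.385), from 57 and 162 UMIs, and the log2 ratio was -1.72, or -1.33 with the length trend within the gate subtracted. In that gate 7.1% of 7717 genes were lower by at least 2-fold, as Trpm2 was, and 24.1% by 1.5-fold. The ratio was 0.516 (0.419 to 0.632) in the immature neutrophil gate, where 22.4% of genes were lower by 1.5-fold as Trpm2 was. Its log2 value of -0.90 became -0.50 with the length trend subtracted and -0.34 with clusters in place of gates, both short of 1.5-fold.

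In the macrophage gate the ratio was nearer to 1, at 0.696 (0.606 to 0.80) from 423 and 402 UMIs. Its log2 value of -0.47 shrank to -0.15 with the length trend subtracted and turned to 0.15 with clusters in place of gates, where different clusters made up the class in each library. Monocytes had 0.595 (0.421 to 0.828). The intervals for progenitors, 0.80 (0.481 to 1.31), and osteoclast-like cells, 0.774 (0.481 to 1.24), include 1. Stromal cells gave 4 UMIs in each library, too few for a direction. The neutrophil and macrophage ratios have intervals that do not overlap; the difference between them has no replicate test.

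The neutrophil gate was not uniform, and its makeup bears on the level. Its median cell had 2279 UMIs with THP and 1947 with vehicle, but cells of 5000 UMIs or more, 252 and 179 of them, held most of the summed UMIs. In the cells under 5000 UMIs Trpm2 stood at 27.5 CPM with THP (19.8 to 37.2) and 81.5 with vehicle (67.9 to 97.1), a ratio of 0.337 (0.232 to 0.482). In the deeper cells it stood at 3.44 CPM (1.92 to 5.67) and 11.3 (7.89 to 15.6), a ratio of 0.305 (0.155 to 0.571). The estimates of the ratio were close on both sides of the depth limit while the levels were not. The whole-gate ratio of 0.283 lay below both estimates. The deeper cells, low in Trpm2, held 4365346 of 5891903 UMIs with THP and 3195826 of 4741220 with vehicle, a larger share with THP. Markers of macrophages were common in the deeper cells: Adgre1 was seen in 75.4% of those with THP and 67.6% with vehicle, and Csf1r in 83.7% and 85.5%. Cxcr2 was seen in 29.0% and 39.7% of them, against 66.1% and 80.3% of the cells under 5000 UMIs. The limit of 5000 UMIs was chosen after the values were seen.

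Of the 10 neutrophil markers that the gate itself uses, some were lower in the THP library beside Trpm2 and others higher. With THP and with vehicle, Retnlg had 2087 and 4399 CPM, Cxcr2 (a chemokine receptor of mature neutrophils) 193 and 382, and Csf3r (the receptor for granulocyte colony-stimulating factor) 103 and 211. Mmp8, a collagenase of neutrophil granules, had 346 and 620 CPM. Slpi, a protease inhibitor, was higher with THP, at 1078 and 562 CPM, and so was G0s2, an inhibitor of fat breakdown, at 100.1 and 53.2. S100a8 (31442 and 31622 CPM) and S100a9 (56454 and 53934) were alike. Of the neutrophil list 10 of 10 genes were detected, summing to 92601 and 92662 CPM; of the macrophage list 9 of 9 were detected, summing to 1065 and 855 CPM, with none at 0. The part of these differences in the Trpm2 ratio was not tested. In the cells under 5000 UMIs, 18.7% of 6448 genes were lower by 2-fold, and Cxcr2 (646 and 1076 CPM), Retnlg (7346 and 12579) and Csf3r (274 and 529) were again lower in the THP library, while Slpi (3229 and 1116), G0s2 (315 and 117) and S100a9 (147978 and 116654) were higher.

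Clusters, which use no gate, gave a like value for neutrophils but not for immature neutrophils. The cluster led by Retnlg, Asprv1 and Cxcr2 held 1088 THP and 1346 vehicle cells. Trpm2 stood there at 34.5 CPM with THP (28.3 to 41.7) and 93.0 CPM with vehicle (83.4 to 103), a ratio of 0.371 (0.296 to 0.462), beside ratios of 0.684 for Retnlg and 0.703 for Cxcr2. In the immature neutrophil cluster Trpm2 had 5.98 CPM with THP (4.31 to 8.08) and 7.84 with vehicle (6.32 to 9.60), a ratio of 0.763 (0.517 to 1.11) whose interval includes 1. That is below the intervals of the macrophage cluster that both libraries shared, 9.63 to 12.5 CPM with THP and 13.2 to 16.8 with vehicle. Trpm2 is among the genes clustered, so this is a description.

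Read from progenitor to neutrophils under 5000 UMIs, the Trpm2 level in CPM was higher in each later group. The last step needs that depth limit: the whole neutrophil gate, at 9.67 and 34.2 CPM, was not above the non-mitotic immature neutrophils. The groups are not clean stages, since cells passing both neutrophil gates were counted as immature. The vehicle level of Trpm2 was 1.77 CPM in progenitors and 6.69 (4.82 to 9.04) in immature neutrophils with mitotic markers. It was 37.2 (33.0 to 41.7) in immature neutrophils without them and 81.5 in neutrophils under 5000 UMIs. The THP library gave 1.42, 4.86 (2.88 to 7.69), 15.8 (13.1 to 18.9) and 27.5 CPM over the same 4 groups. Neighbouring intervals were apart in both libraries. Median depth fell along the 4 groups, from 17414 to 10183, 4425 and 1751 UMIs with vehicle and from 14983 to 8670, 4758 and 1994 with THP. At the last step the share of cells with a Trpm2 UMI was lower, not higher. It went from 18.3% to 13.8% with vehicle and from 9.25% to 5.18% with THP. These shares were not matched for depth. Cxcr2 had 16.3, 78.4, 239 and 1076 CPM in the vehicle groups; it is a marker of the neutrophil gate, so its last value is part of the rule.

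Estimates of the Trpm2 ratio were lower in the later groups, with overlapping intervals between neighbours and no replicate test. The ratio was 0.80 (0.481 to 1.31) in progenitors, 0.727 (0.394 to 1.29) in mitotic immature neutrophils, 0.425 (0.340 to 0.529) in the non-mitotic ones and 0.337 in neutrophils under 5000 UMIs. The first pair of intervals include 1 and rest on 18 to 45 UMIs per library. The median log2 ratio of all genes was also lowest in the last group, at -0.37. In the earlier groups it was -0.18, -0.17 and -0.16, in order. The vehicle level of Trpm7, unlike that of Trpm2, was higher in the first groups. It was 101 CPM (97.3 to 105), 91.9 (84.6 to 99.7), 68.9 (63.2 to 75.0) and 71.8 (59.1 to 86.5) over the same groups. The estimate of the Trpm7 ratio was, like that of Trpm2, lowest in the last group. It was 0.525 (0.488 to 0.564), 0.603 (0.511 to 0.708), 0.569 (0.492 to 0.658) and 0.410 (0.284 to 0.585).

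**Figure D3:**
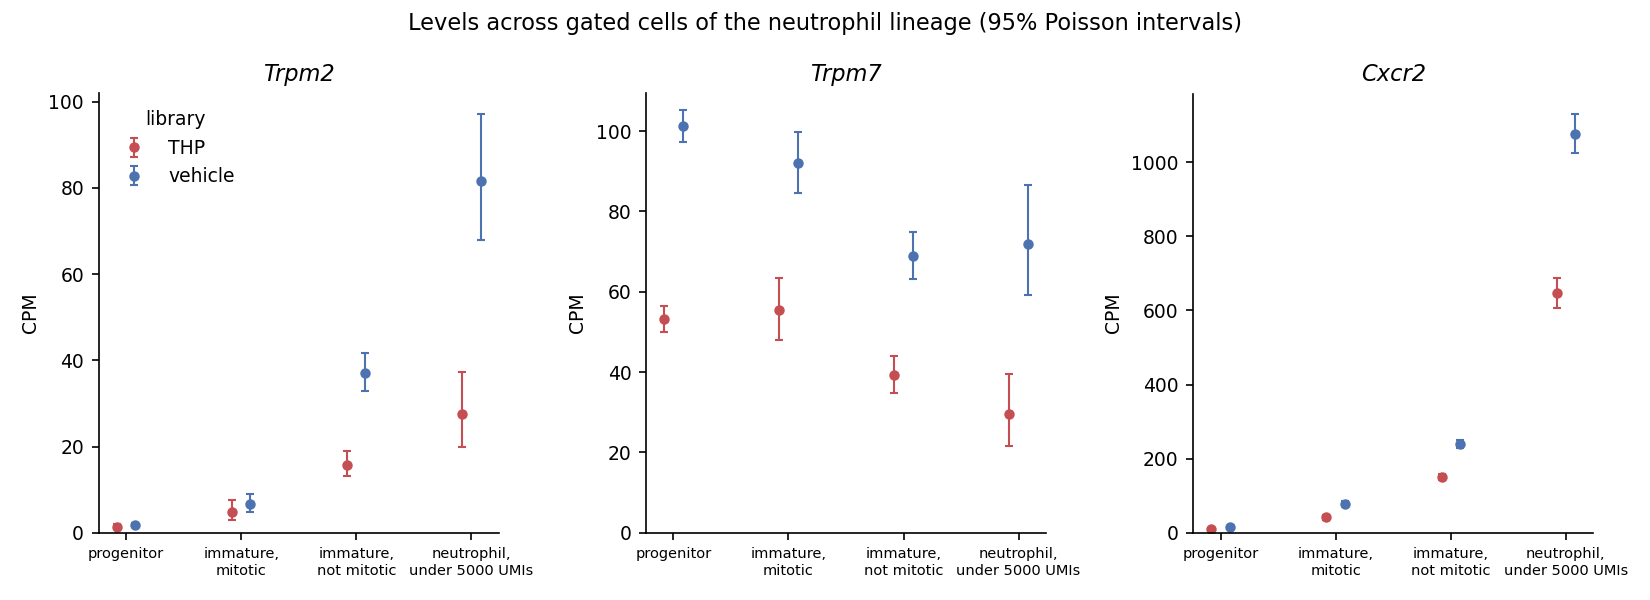
CPM (y axis, from 0) of Trpm2, Trpm7 and the neutrophil receptor gene Cxcr2 in progenitors, mitotic and non-mitotic immature neutrophils, and neutrophils under 5000 UMIs (x axis), THP in red and vehicle in blue, with 95% Poisson intervals. Trpm2 and Cxcr2 are higher from left to right in both libraries, Trpm2 to 27.5 and 81.5 CPM, while Trpm7 is highest in the first groups.

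Trpm4 followed another pattern, with its highest levels in osteoclast-like cells, stromal cells and macrophages. Osteoclast-like cells were gated on Mmp12, Atp6v0d2, Ocstamp, and Acp5 and Ctsk, genes of the bone-resorbing cell. In that gate Mmp12 stood at 4099 CPM with THP and 4659 with vehicle, but Ocstamp at only 1.82 and 4.22. Trpm4 had 5.11 CPM there with THP (3.86 to 6.63) and 8.82 with vehicle (7.11 to 10.8). Macrophages had 4.68 (4.15 to 5.25) and 5.66 CPM (4.95 to 6.43). Stromal cells had 3.97 (1.46 to 8.65) and 7.06 CPM (4.04 to 11.5), and their intervals overlap those of both. Immature neutrophils had 1.63 (0.966 to 2.58) and 1.14 CPM (0.652 to 1.85), and progenitors 1.06 (0.658 to 1.62) and 1.73 (1.26 to 2.32).

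The macrophage gate held 2.87 times (1.78 to 4.91) the Trpm4 level of immature neutrophils with THP and 4.96 times (2.99 to 8.82) with vehicle. Osteoclast-like cells exceeded macrophages by 1.56 times (1.21 to 1.99) with vehicle, and by 1.09 times (0.805 to 1.46) in the THP library, where the interval includes 1. The neutrophil cluster held 0 Trpm4 UMIs with THP and 3 with vehicle.

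Between libraries, Trpm4 was lower in the THP osteoclast-like gate, with a ratio of 0.579 (0.408 to 0.816) from 56 and 92 UMIs. The macrophage ratio was 0.827 (0.693 to 0.987), and its log2 value of -0.23 became -0.02 with TMM factors computed within the gate and turned to 0.11 with clusters in place of gates. The other 5 gates have intervals that include 1, from 6 to 54 UMIs per library. At this depth a difference in them was not detectable.

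Trpm7 was spread evenly. Its vehicle level ran from 58.4 CPM (53.8 to 63.2) in osteoclast-like cells to 101 CPM in progenitors, and its THP level from 34.1 (30.7 to 37.7) to 53.1 (49.9 to 56.4) in the same gates. The progenitor gate exceeded the macrophage gate by 1.39 times (1.32 to 1.46) in the vehicle library and 1.21 times (1.13 to 1.30) in the THP library. The gates between these extremes had overlapping intervals with at least 1 neighbour in each library.

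The lower Trpm7 level in the THP library was present in every gate compared. The 7 ratios ran from 0.525 (0.488 to 0.564) in progenitors to 0.601 (0.571 to 0.634) in macrophages, and each interval lay below 1. All 7 were lower by at least 1.5-fold. That size was reached by 18.7% of genes in the progenitor gate, 22.4% in immature neutrophils, 24.1% in neutrophils, 16% in monocytes, 15.3% in macrophages, 15.9% in osteoclast-like cells and 19.9% in stromal cells. With TMM factors within the gate, macrophages (log2 -0.48) and osteoclast-like cells (-0.56) were short of 1.5-fold. With the length trend subtracted within each gate no gate reached it, and the log2 ratios ran from -0.54 in stromal cells to -0.42 in macrophages. Cells with no gate gave 0.581 (0.556 to 0.606). The stromal gate, with 62 THP and 55 vehicle cells, differed between the libraries in its own markers. Col1a1 had 670 CPM with THP and 4776 with vehicle, Dcn 418 and 101, and Col3a1 427 and 441. Its median depths were 20296 and 39286 UMIs, so its ratios may not compare like cells.

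Over the 21 pairs of gene and gate, 19 ratios were below 1 and 13 intervals lay wholly below it, 4 for Trpm2, 2 for Trpm4 and 7 for Trpm7. None lay above. The pairs above 1 were Trpm2 in stromal cells and Trpm4 in immature neutrophils, at 1.43 (0.688 to 3.00). Most genes ran the same way: over all kept cells 5416 of the 8012 genes at 10 CPM or more had a log2 ratio below 0. The median log2 ratio of all genes was below 0 in each gate, from -0.20 in immature neutrophils to -0.09 in stromal cells.

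**Figure D4:**
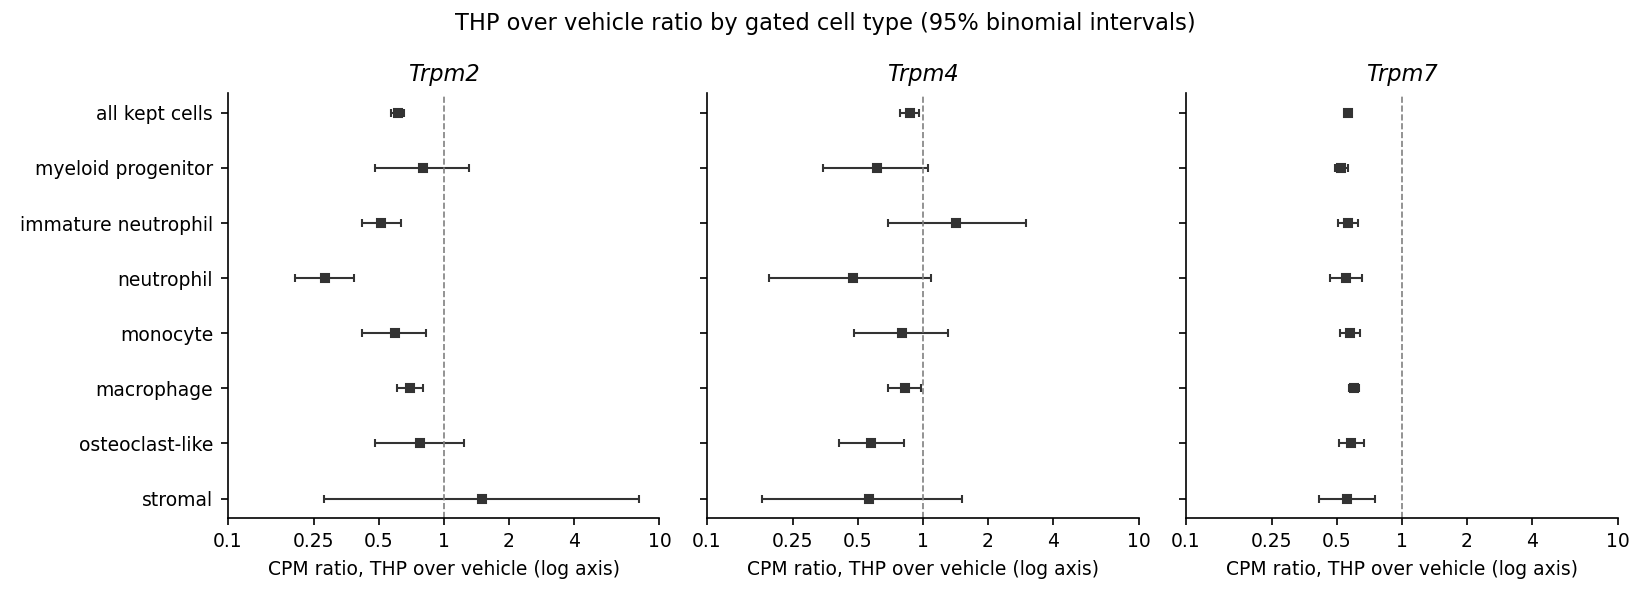
Ratio of CPM, THP over vehicle (x axis, log scale), for each gene in all kept cells and in 7 gates (y axis), as squares with exact binomial 95% intervals; the dashed line marks 1. Trpm7 keeps between 0.525 and 0.601 in the 7 gates, while Trpm2 is lowest in the neutrophil gate, at 0.283, and has a wide interval around 1 in stromal cells.

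Shares of cells with a UMI depend on depth, so each cell was also thinned to 5000 UMIs, which left out 1958 THP and 1966 vehicle cells. Trpm7 was then seen in 20.7% of THP cells (19.9 to 21.5) and in 32.5% of those given vehicle (31.5 to 33.5). Trpm2 was seen in 2.42% (2.13 to 2.74) and 3.84% (3.45 to 4.26), and Trpm4 in 1.75% (1.51 to 2.03) and 2.03% (1.75 to 2.34). Without thinning the same deep cells gave 54.8% and 74.2% for Trpm7. Progenitors, whose Trpm2 level was among the lowest, had a Trpm2 UMI in 0.352% and 0.524% of thinned cells, against 2.87% and 4.65% in macrophages. The median depths before thinning were 15087 and 17474 UMIs in progenitors and 22176 and 22689 in macrophages. The neutrophil gate, with 252 and 179 cells left at this depth, had 0.397% (0.0100 to 2.19) and 3.91% (1.59 to 7.89), not above macrophages. Thinned to 2000 UMIs, it had 2.48% (1.39 to 4.06) and 9.74% (7.19 to 12.8). Macrophages then had 1.97% (1.45 to 2.62) and 1.57% (1.02 to 2.31). The order of the neutrophil and macrophage estimates thus differed with thinning depth.

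Genes whose levels ran most like each member were ranked by Pearson's r of log2(CPM + 1) over the 14 values of 7 gates in 2 libraries, among genes with a mean of at least 10 CPM. The gates share libraries and neutrophil cells differ in depth, so r is a description. Nearest to Trpm2 were Vps9d1 (0.92), 3110062M04Rik (0.91), Mfsd6 (0.90), 6430548M08Rik (0.89) and Mapk7 (0.89). Nearest to Trpm4 were Serinc1, Asph, Aplp2, Ipo13 and Cdc42bpb, each with r of 0.95. Nearest to Trpm7 were Npat (0.99), Atrx (0.98), Tubgcp3 (0.98), Shprh (0.98) and Msh3 (0.97), and each of them peaked in vehicle progenitors. The 3 members ran unlike one another, with r of -0.18 between Trpm2 and Trpm4, 0.09 between Trpm2 and Trpm7, and -0.04 between Trpm4 and Trpm7.

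The genes that work beside these channels were taken from 11 lists, the other Trpm genes among them. Of 130 listed genes in the table, 79 reached 10 CPM; 17 of them (21.5%) were lower by 1.5-fold and 2 (2.53%) higher, beside 17.3% and 2.33% of all genes. With TMM factors the first count was 5, and with RLE factors 6. Counts given per list below stand beside the same shares of all genes, 17.3% lower and 2.33% higher by 1.5-fold. The lists were chosen with earlier results of these data known.

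Genes of ADP-ribose and NAD metabolism supply and remove the TRPM2 ligand. Of 11 tested, 2 were lower by 1.5-fold and none higher, with a median log2 ratio of -0.14. Parg, which frees ADP-ribose from poly(ADP-ribose), had 16.5 CPM with THP and 36.3 with vehicle, a log2 ratio of -1.10 that kept -0.98 after the length correction. Sirt1, an NAD-dependent deacetylase, had -0.77. Parp1, which builds poly(ADP-ribose), had 81.1 and 120 CPM and a log2 ratio of -0.56, short of 1.5-fold.

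Of the NADPH oxidase genes, the oxidant source, 0 of 6 differed by 1.5-fold. Ncf4 and Cyba, subunits of that oxidase, each had a log2 ratio of 0.22. Among 8 genes of oxidant removal, Sod2, the mitochondrial superoxide dismutase, was the exception, at 538 CPM (535 to 541) with THP and 175 (173 to 177) with vehicle, or 1.61 on the log2 scale. Prdx5 (0.18) and Cat (-0.19) were next.

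Store-operated calcium entry and calcium release had the lowest median of the lists with at least 10 tested genes, -0.56 over 15 genes. Of these, 6 were lower by 1.5-fold, a size that 17.3% of all genes reached. Itpr1, a calcium release channel of the endoplasmic reticulum, had 10.6 CPM with THP and 27.1 with vehicle (log2 -1.27). Plcb2, a phospholipase that makes its ligand, had -1.15 and Atp2a3, a calcium pump that refills the store, -0.86. Among all genes of 5334 bases or more 40.1% were lower by 1.5-fold, and Itpr1 has 9870 bases. With the length correction the median of the list was -0.35, beside -0.18 for all genes. In the calmodulin and calcium signalling list 3 of 12 were lower: Nfatc1 (-0.78), Camk2g (-0.77) and Ppp3ca (-0.72).

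Other channels did not move together. Of 3 tested TRP channels outside the family, Mcoln2, a lysosomal channel, was higher at 15.4 against 8.28 CPM (log2 0.82), Pkd2 lower (-0.60) and Trpv2 near 0 (-0.02). Of 14 tested ion channels of macrophages, 2 were lower by 1.5-fold, the scramblase gene Ano6 (-0.63) and the ATP-gated channel gene P2rx7 (-0.62). Kcnn4, a calcium-activated potassium channel, had 140 and 102 CPM and a log2 ratio of 0.45.

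Near TRPM7, magnesium transport had 1 of 5 tested genes lower, Cnnm3 (-0.88), with Nipa2 at -0.46 and Mrs2 at -0.33. Among TRPM7 kinase substrates and kinase relatives 2 of 5 were lower, Eef2k, which carries the same type of kinase (-1.05), and Myh9, the heavy chain of non-muscle myosin (-0.83), a long gene that kept -0.47 after the length correction; Smad2 had -0.43. Abcc8 and Abcc9, partners of TRPM4, did not reach 10 CPM.

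**Figure D5:**
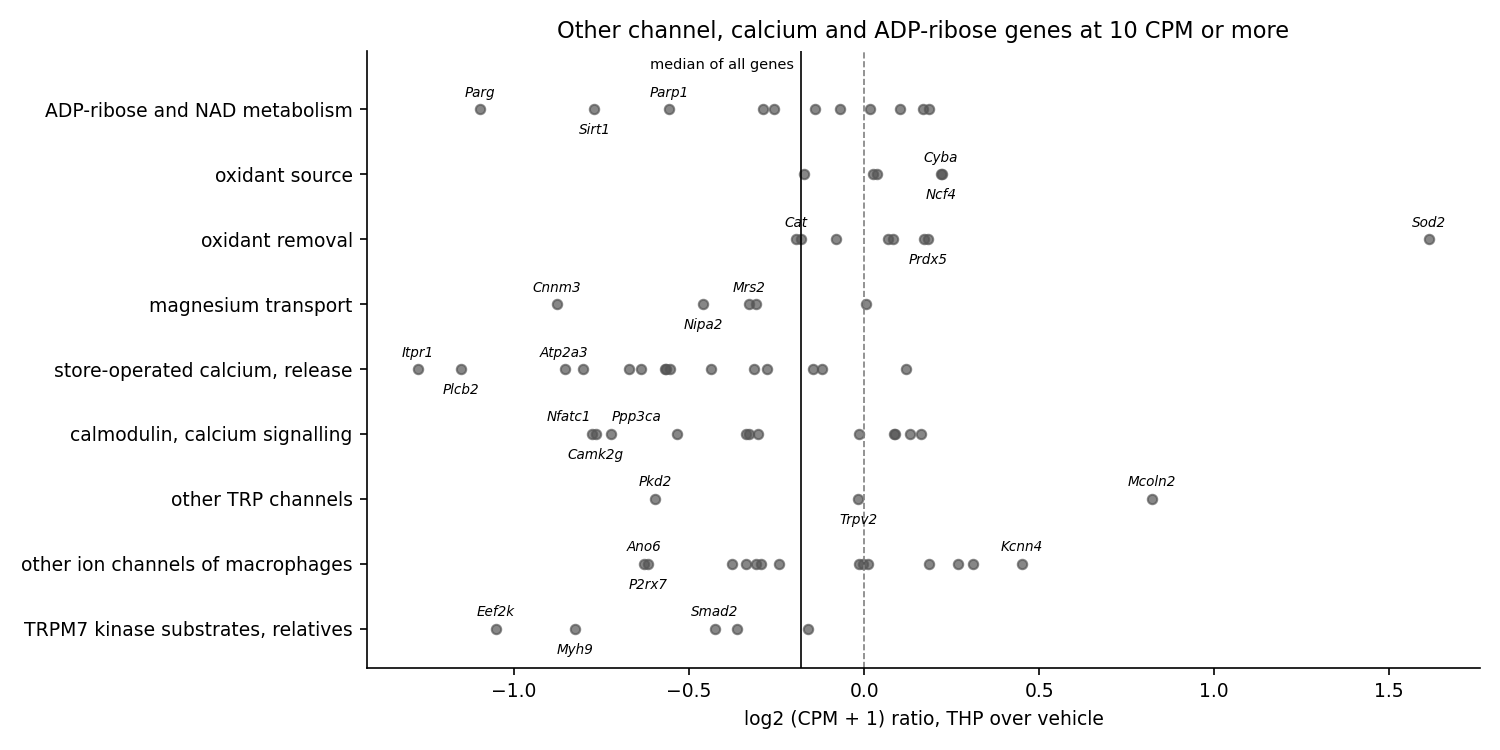
Log2 ratio of CPM + 1, THP over vehicle (x axis), of listed genes at 10 CPM or more other than the 3 members, by list (y axis), with up to 3 genes per list named. The black line marks the median of all genes, -0.18, and the dashed line marks 0; Sod2 at 1.61 lies farthest right and Itpr1 at -1.27 farthest left.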

How the data were processed

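Each deposited matrix holds whole-number UMI counts, with no normalization, for genes by cell barcodes; software version 3.1.0 made it, per the file headers. The submitters' processing notes name Cell Ranger, STAR, bcl2fastq and mm10. From them, cells were kept with at least 500 genes, at least 1000 UMIs and at most 10% mitochondrial UMIs, counts were summed per library and gate, and CPM were computed. Scrublet marked 0 THP and 173 vehicle cells, so no doublets were removed. A marker counted in a cell at 2 UMIs or more and a CPM at or above the mean of the libraries. A gate needed 3 markers (macrophage 5 of 9), and a cell passing several unrelated gates was left out. A cell passing only progenitor and neutrophil gates went to the progenitor gate if that was among them, else to the immature gate. A cell passing just the osteoclast-like and macrophage gates was counted as osteoclast-like. These limits, and the gate pairs set side by side, were settled with member values in view. Mitotic cells were taken from a 5-gene marker list.

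Intervals are exact: Poisson for CPM, conditional binomial for ratios, Clopper-Pearson for shares. The log2 ratio uses a pseudocount of 1 CPM, which understates changes of low genes. Transcript length is the longest GENCODE transcript; the trend is a running median over 401 genes. Named genes were, per list, up to 3 with the largest log2 ratio, and, per member, the 5 most correlated genes. A listed gene that this rule takes is not reported here, though counts include it. The members and lists were chosen with earlier results of these data known. The interval code was tested on simulated data. Python 3.11.15, scipy 1.17.1, scanpy 1.11.5, R 4.3.3 and edgeR 4.0.16 (scaling factors only) were used.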

Additional observations from a re-analysis of the deposited data

How the results depend on the processing

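Alternatives moved the sizes more than the directions. For Trpm2 over all kept cells (log2 -0.62) TMM gave -0.37, RLE -0.37, equal weight per cell -1.12, a pseudocount of 5 CPM -0.41 and the length correction -0.28. For Trpm7 (-0.82) they gave -0.54, -0.55, -0.77 with the pseudocount and -0.51 with the length correction. Trpm4 (-0.16) turned to 0.066 with TMM and 0.061 with RLE, and was -0.044 with the length correction. In single gates Trpm2 turned to 0.20 in progenitors and 0.025 in osteoclast-like cells with the length correction, and to -0.32 in stromal cells with a stricter gate. With clusters in place of gates the macrophage values turned to 0.15 for Trpm2 and 0.11 for Trpm4; a cluster of 4705 THP and 145 vehicle cells led by Ccl7 and Cxcl1 stayed unnamed there, so different clusters made up the class in each library. Within the 1 macrophage cluster with at least 200 cells in each library, Trpm2 had a ratio of 0.738 (0.617 to 0.882) and Trpm4 1.00 (0.765 to 1.31).

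The Trpm2 log2 ratio of neutrophil to macrophage gate was 0.45 in the THP library; equal weight gave 1.53, cells under 5000 UMIs 1.87 and a gate without S100a8, S100a9, Slpi and Mmp9 0.88. In the vehicle library it was 1.70, and a looser gate gave 1.43, with 2.79, 2.93 and 2.57 for the other settings in that order. The difference in the share of cells with a UMI, THP minus vehicle, was -1.42 points for Trpm2, -0.28 for Trpm4 and -11.8 for Trpm7 at 5000 UMIs; unthinned it was -4.92, -0.80 and -16.6, and for Trpm7 -5.84 at 2000 and -3.00 at 1000 UMIs. The 238 genes lower by 2-fold became 70 with TMM, 70 with RLE and 1387 at 1.5-fold; the 73 higher became 135, 135 and 187. The listed genes lower by 1.5-fold, 17, became 5 and 6. A stricter gate left under 50 osteoclast-like cells and a looser one under 50 stromal cells. The gate without 4 markers, the depth limit, thinning to 1000 UMIs, and equal weight and length correction within gates were added after seeing the data. No paired analysis was possible because each group has 1 library.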

Other observations

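Cells with mitotic markers differed from the rest of their gate for Trpm7 in macrophages as well. Mitotic macrophages had 48.5 CPM with THP and 76.7 with vehicle, 1.18 times (1.09 to 1.27) and 1.10 times (1.02 to 1.18) the level of the other macrophages. For Trpm4 the same ratios were 0.985 (0.767 to 1.26) and 0.935 (0.714 to 1.22), and for Trpm2 0.719 (0.579 to 0.890) and 0.959 (0.783 to 1.17). Mitotic macrophages were deeper, with median UMIs of 26700 against 19494.5 in the THP library. For Trpm7, the intervals of both libraries included 1 in progenitors, neutrophils, monocytes and stromal cells. In osteoclast-like cells the vehicle interval did.

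Some gates were too small for the comparison. The mast cell or basophil gate, with 42 THP and 33 vehicle cells, had Trpm2 at 22.1 CPM (8.89 to 45.6) and 19.0 CPM (8.70 to 36.1), from 7 and 9 UMIs. The T or NK gate had 0 Trpm2 UMIs in 23 and 20 cells.

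The barcodes left out by the cell filter, 1070 THP and 606 vehicle, carried Trpm2 at 12.6 CPM (8.43 to 18.1) and 22.4 CPM (15.3 to 31.6), and Trpm7 at 75.1 (64.3 to 87.1) and 117 CPM (99.7 to 136).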
